A study of Rattus norvegicus with 4 samples.

Results

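The RT1 genes are the genes of the rat major histocompatibility complex (MHC) on chromosome 20. They were taken as every gene of the deposited gene table whose symbol begins with RT1-, which gave 31 of 32623 genes, 21 of class I and 10 of class II. Their transcripts were measured by single-nucleus RNA sequencing of infarct zone tissue from Sprague Dawley rats. The 4 samples, with 1 library each, were a sham sample and samples of myocardial infarction named for 1 h, 6 h and 24 h. Those times are given as reperfusion in the treatment labels, but in the series text as lengths of ligation of the left anterior descending coronary artery, with reperfused groups listed apart from them. The meaning of the times therefore stays unsettled, and the groups listed apart are not analysed here. The sources used here give neither the age nor the number of rats behind a library, and no source ties the barcode suffixes 1 to 4 of the pooled matrix to the 4 samples. Libraries are therefore called 1 to 4 by suffix, none is called sham or infarcted, and every value below is 1 value per library, with no replicate, no test between conditions and no p-value.

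MHC class I molecules are carried by almost all nucleated cells and show peptides from inside the cell to CD8 T cells and natural killer (NK) cells. Their heavy chain pairs with beta-2 microglobulin and is loaded with peptides that the TAP transporter moves into the endoplasmic reticulum. MHC class II molecules are pairs of an alpha and a beta chain that show peptides from the endocytic pathway to CD4 T cells, and they are known above all from dendritic cells, B cells and activated macrophages. In the heart, resident dendritic cells and macrophages are the usual class II carriers, and the endothelium is known for a high class I level.

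After filtering, 41728 nuclei were used, 8363, 12897, 14287 and 6181 from libraries 1 to 4, with median depths of 1296, 602, 1884 and 2215 unique molecular identifiers (UMIs, counts of single captured transcripts) per nucleus. The RT1 genes took 70133 of 87547173 UMIs, or 0.0801%, of which 57413 were class I and 12720 class II. Nuclei were clustered without the RT1 genes and without the other antigen presentation genes, and clusters were named "-like" from standard heart and leukocyte markers. The named classes were dendritic-like, B cell-like, macrophage-like, T or NK cell-like, neutrophil-like, endothelial-like, lymphatic endothelial-like, fibroblast-like, pericyte-like, Schwann or neuronal-like and cardiomyocyte-like. Levels are UMIs of a gene per 1000000 UMIs (CPM) of the pooled nuclei of 1 class and library, for classes with at least 50 nuclei there, with 95% exact intervals that cover counting error only. UMIs are read at transcript ends and not per length, so levels of different genes are not compared, and fewer nuclei of a kind inside a class cannot be told apart from less RNA per nucleus. Library 2 stood apart, with 83.2% of its nuclei in unnamed clusters, against 0.323% in library 1, 4.67% in library 3 and 6.21% in library 4. The 6 pairs of libraries shared between 22 and 78 barcode sequences, and nuclei were kept apart by suffix. Clusters were largely library-specific: the cardiomyocyte-like, endothelial-like and fibroblast-like nuclei of library 1, of library 2 and of libraries 3 and 4 lay mostly in different clusters of the same name, as did the macrophage-like nuclei of library 1 and of libraries 3 and 4.

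Nuclei of the dendritic-like class carried by far the most class II transcripts. Summed over the 10 class II genes, they held 2042 CPM (1946 to 2142) in library 3 and 2470 CPM (2219 to 2742) in library 4, against 189 and 85.8 CPM in all other named nuclei of the same libraries. These are ratios of 10.8 (10.3 to 11.4) and 28.8 (25.6 to 32.3). Libraries 1 and 2 held 4 dendritic-like nuclei each and gave no level. The class comprised 345 nuclei in library 3 and 62 in library 4, and all 11 of its detected markers together reached 3252 and 2498 CPM there, against at most 740 CPM in any other class. Macrophage markers were at 1829 and 1679 CPM in the same nuclei, against 3679 and 4489 CPM in macrophage-like nuclei of libraries 3 and 4, and B cell markers at 314 and 294 CPM, against 3261 CPM in B cell-like nuclei of library 3. Fibroblast markers reached 2913 and 2176 CPM in dendritic-like nuclei, against 10473 and 8851 CPM in fibroblast-like nuclei, and cardiomyocyte markers 1622 and 2064 CPM, against 9928 and 13059 CPM in cardiomyocyte-like nuclei. The part of such RNA in the class II level was not tested. The plot of class II levels by class shows these 2 points above all others. In 2 other settings the named dendritic-like cluster was smaller, with 97 and 93 nuclei of library 3, as given in the closing section.

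**Figure D1:**
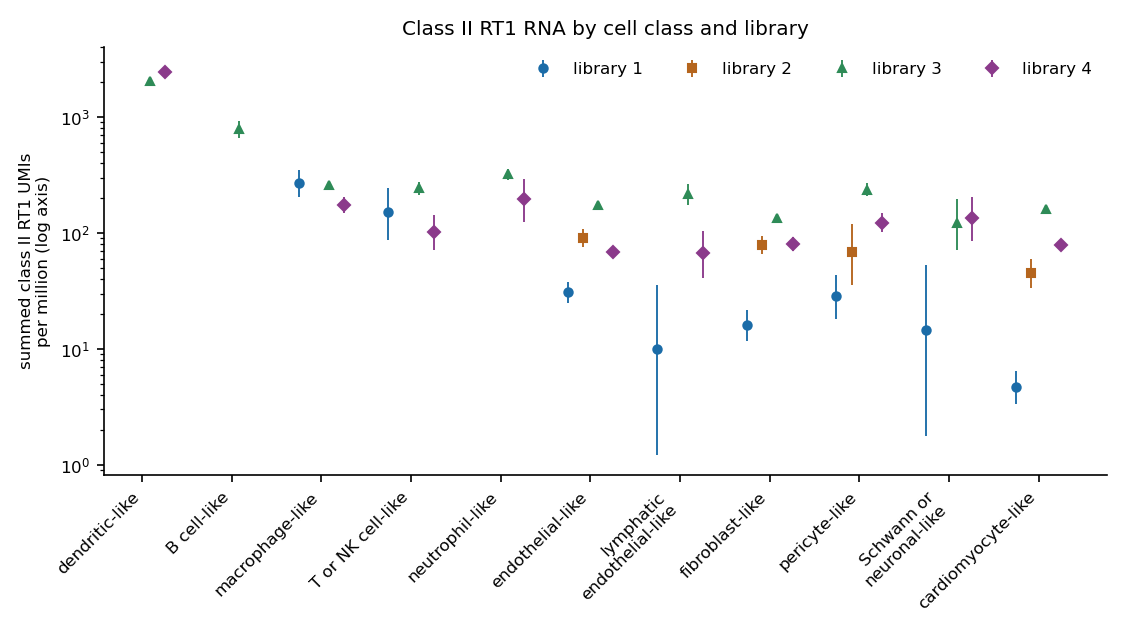
Summed class II RT1 level (CPM, log axis) in each named cell class, with 1 point for each library holding at least 50 nuclei of the class and bars for 95% exact Poisson intervals. The dendritic-like points lie at 2042 and 2470 CPM, the B cell-like point at 788 CPM, and the cardiomyocyte-like points spread from 4.68 to 162 CPM.

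The classical class II pairs RT1-D, the rat relative of human HLA-DR, and RT1-B, the relative of HLA-DQ, made up most of that sum. RT1-Da, the RT1-D alpha chain, was at 608 CPM in library 3 and 889 CPM in library 4 in dendritic-like nuclei, against 67.3 and 31.7 CPM in other named nuclei, ratios of 9.04 (8.19 to 9.95) and 28.1 (23.0 to 34.1). RT1-Db1, its beta chain, was at 707 and 826 CPM against 62.3 and 27.6 CPM, ratios of 11.3 and 29.9. Both chains of RT1-D were thus higher in dendritic-like nuclei of both libraries. RT1-Ba, the RT1-B alpha chain, was at 432 and 546 CPM in dendritic-like nuclei, against 36.9 and 16.3 CPM in other named nuclei, ratios of 11.7 and 33.5. RT1-Bb, its beta chain, was at 177 and 98.0 CPM against 12.9 and 2.56 CPM, ratios of 13.7 (11.3 to 16.5) and 38.2 (19.4 to 70.7). The chains of RT1-B were likewise higher in dendritic-like nuclei of both libraries.

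RT1-DOa and RT1-DOb encode the chains of DO, a modulator of the DM molecule that exchanges peptides on class II, and DO is known mainly from B cells and some dendritic cells. RT1-DOa was at 69.0 and 84.0 CPM in dendritic-like nuclei of libraries 3 and 4, against 1.79 and 3.18 CPM in other named nuclei, ratios of 38.6 (26.5 to 56.1) and 26.4 (12.9 to 49.8). RT1-DOb was at 33.9 and 28.0 CPM against 0.995 and 0.613 CPM, ratios of 34.1 (20.0 to 57.7) and 45.7 (10.6 to 154). In library 3 the intervals of both DO ratios lay above those of the 4 RT1-D and RT1-B genes just given; in library 4 the intervals of all 6 genes overlapped. RT1-Db2, a second RT1-D beta-chain gene, did not follow: it was at 9.69 CPM against 5.94 CPM in library 3, a ratio of 1.63 (0.695 to 3.27). In library 4 no RT1-Db2 UMI was counted in 62 dendritic-like nuclei, which allows up to 21.0 CPM, against 3.57 CPM in other named nuclei.

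A gene was called higher where it was at least 2-fold higher in every library with 50 nuclei of the class, on log2(CPM + 10), among genes with at least 30 UMIs in the class. For dendritic-like nuclei this held for 5.67% of the 6592 genes measured. Of the 10 class II genes, 6 had 30 UMIs there and all 6 were called, with a median log2 difference of 3.39, beside 0.11 over all genes measured. A gene can reach 30 UMIs in so small a class through its level in that class alone, so the 6 of 6 is no support in itself, and the other 4 were RT1-Db2, RT1-DMa, RT1-DMb and RT1-Ha. Of the 21 class I genes, 9 had 30 UMIs and none was called, with a median of 0.02. With no filter beyond 1 UMI the same rule called 2.67% of 14701 genes, and among RT1 genes again 6.

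**Figure D2:**
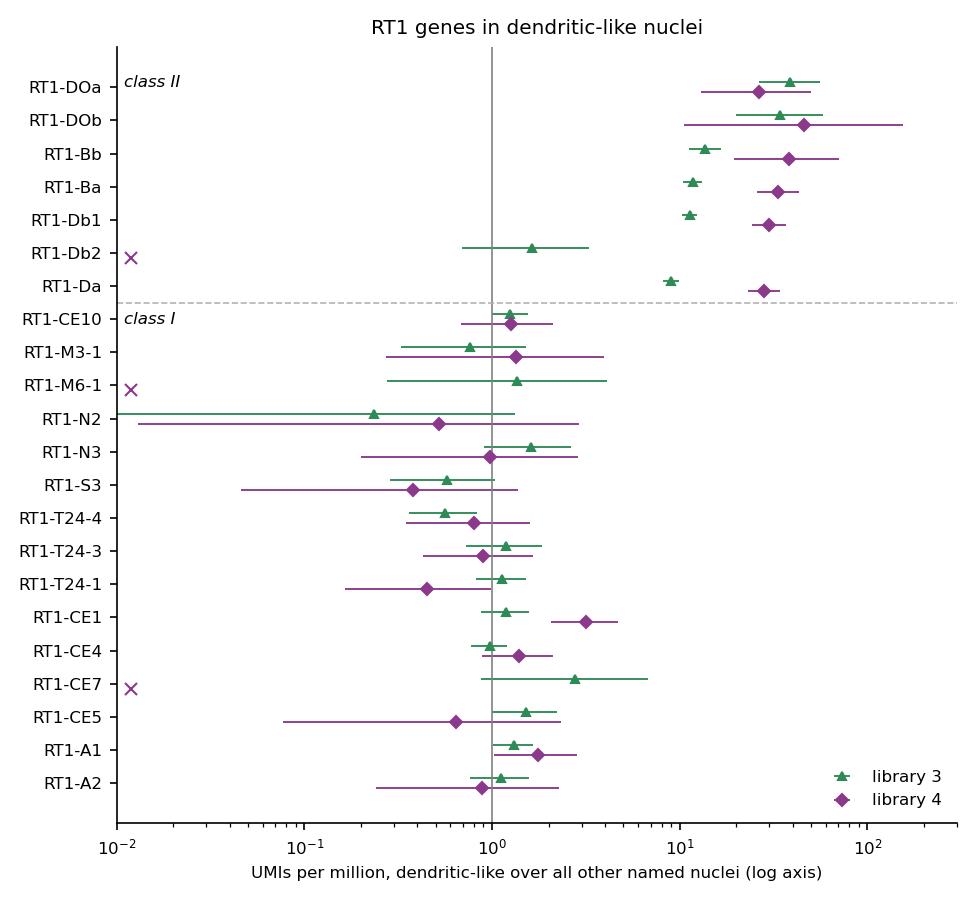
Ratio of CPM in dendritic-like nuclei to CPM in all other named nuclei (log axis) for the 22 RT1 genes with at least 100 UMIs, in libraries 3 and 4, with 95% intervals. The solid vertical line marks equal levels, and the dashed horizontal line parts class II from class I genes. Crosses at the left edge mark genes with 0 UMIs in dendritic-like nuclei. RT1-Da, RT1-Db1, RT1-Ba, RT1-Bb, RT1-DOa and RT1-DOb lie right of the vertical line in both libraries, from 9.04 to 45.7.

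Class II genes share a promoter module in which the X box is bound by the RFX complex and the Y box by NF-Y, and the class II transactivator CIITA docks on both. RefSeq promoters of the assembly GRCr8 were matched by symbol for 27 of the 31 members, and each was searched from 250 bases before to 50 bases after the gene's start, on both strands; the letters searched were chosen with these promoters in view. The letters CTGATTGG, a Y box, were in 7 of 9 class II and 6 of 18 class I promoters, against 3.5% of all 33469 promoters. All 7 class II matches were on the gene's own strand, and all 6 class I matches on the opposite strand. The X box core, searched by its consensus, was in 5 of 9 class II and 0 of 18 class I promoters, against 0.478% of all. Class I promoters are known for another module, a kappa B site followed by an interferon response element. The letters GGGATTCCC, a kappa B site, were in 0 of 9 class II and 4 of 18 class I promoters, against 0.365% of all. The letters TTTCACTTC, of an interferon response element, were in 0 of 9 and 5 of 18, against 0.469% of all. No match overlapped one of another motif, and a match describes letters only. The sequences below are those of the RT1-D and RT1-B chains, which make up most of the class II sum, with RT1-Db2 shown because it was not higher in dendritic-like nuclei, and RT1-A1 shown as a class I gene for comparison. Each is the 250 bases before the gene's start on chromosome 20 of GRCr8, 5′ to 3′ on the gene's own strand, with the matches in capitals, X box before Y box in the class II genes and kappa B before interferon response element in RT1-A1. RT1-Bb is chr20:4604119-4604368 on the minus strand, RT1-Ba chr20:4576807-4577056 on the plus strand, RT1-Db1 chr20:4560163-4560412 on the minus strand, RT1-Db2 chr20:4541596-4541845 on the minus strand, RT1-Da chr20:4515165-4515414 on the plus strand and RT1-A1 chr20:4906959-4907208 on the plus strand.
RT1-Bb: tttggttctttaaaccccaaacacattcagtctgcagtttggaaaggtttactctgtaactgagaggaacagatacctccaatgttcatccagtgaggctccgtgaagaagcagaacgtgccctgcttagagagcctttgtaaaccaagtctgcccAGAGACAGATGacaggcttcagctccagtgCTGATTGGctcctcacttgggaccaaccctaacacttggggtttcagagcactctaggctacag
RT1-Ba: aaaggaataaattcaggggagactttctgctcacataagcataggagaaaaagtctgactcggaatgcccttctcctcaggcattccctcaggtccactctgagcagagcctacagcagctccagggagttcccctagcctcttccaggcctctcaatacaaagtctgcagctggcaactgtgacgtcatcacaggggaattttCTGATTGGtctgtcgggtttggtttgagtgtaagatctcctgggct
RT1-Db1: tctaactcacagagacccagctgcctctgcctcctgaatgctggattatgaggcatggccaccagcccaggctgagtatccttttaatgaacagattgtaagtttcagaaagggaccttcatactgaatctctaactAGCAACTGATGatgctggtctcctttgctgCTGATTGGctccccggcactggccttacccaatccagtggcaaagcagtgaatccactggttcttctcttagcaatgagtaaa
RT1-Db2: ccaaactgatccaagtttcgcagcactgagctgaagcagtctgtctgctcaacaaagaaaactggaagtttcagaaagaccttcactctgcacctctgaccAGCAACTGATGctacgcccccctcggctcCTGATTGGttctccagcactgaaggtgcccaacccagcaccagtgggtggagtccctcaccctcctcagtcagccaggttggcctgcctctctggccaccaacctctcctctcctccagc
RT1-Da: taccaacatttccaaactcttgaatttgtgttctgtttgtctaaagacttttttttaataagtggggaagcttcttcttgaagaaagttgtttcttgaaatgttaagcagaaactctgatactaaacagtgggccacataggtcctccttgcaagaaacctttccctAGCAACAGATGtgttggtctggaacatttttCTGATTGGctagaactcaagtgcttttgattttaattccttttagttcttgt
RT1-A1: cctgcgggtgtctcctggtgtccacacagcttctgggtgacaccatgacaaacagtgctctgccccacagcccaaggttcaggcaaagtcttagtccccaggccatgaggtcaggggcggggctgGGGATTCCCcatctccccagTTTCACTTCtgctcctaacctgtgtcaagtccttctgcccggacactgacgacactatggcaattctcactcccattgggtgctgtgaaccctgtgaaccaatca

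X and Y were 19 bases apart in RT1-Bb, 19 in RT1-Db1, 18 in RT1-Db2 and 20 in RT1-Da. RT1-Db2 thus held the same module letters as RT1-Db1 while its level in dendritic-like nuclei did not stand above the rest. RT1-Ba had the Y box letters without the X box letters in this window. In RT1-A1 a Y box match lay across the start and is not in the stretch shown.

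B cell-like nuclei, measured in library 3 with 82 nuclei, were the next class, with a class II sum of 788 CPM (659 to 935) against 229 CPM in other named nuclei of that library, a ratio of 3.45 (2.88 to 4.10). RT1-Ba was at 223 CPM there against 45.2 CPM, RT1-Db1 at 259 against 76.3 CPM, and RT1-Da at 162 against 79.3 CPM. The DO chains stood highest above the other nuclei: RT1-DOa was at 66.2 CPM against 3.04 CPM, a ratio of 21.8 (10.6 to 40.5), and RT1-DOb at 42.1 CPM against 1.56 CPM, a ratio of 27.0 (10.4 to 59.3). RT1-Bb was not separable from its level elsewhere, at 24.1 CPM against 16.7 CPM, a ratio of 1.45 (0.392 to 3.72). The call took in 7.71% of 1349 genes, among them RT1-Ba and RT1-Db1, which were the only RT1 genes to reach 30 UMIs in these nuclei. In so small a class a gene reaches 30 UMIs only through a high level there, so nothing is read from that count.

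Dendritic-like nuclei of library 3 held 2.59 (2.17 to 3.12) times the class II sum of B cell-like nuclei, unevenly over the chains. The ratio was 7.35 (2.81 to 27.3) for RT1-Bb, 3.74 (2.54 to 5.74) for RT1-Da, 2.73 (2.00 to 3.82) for RT1-Db1 and 1.94 (1.38 to 2.80) for RT1-Ba. For the DO chains the intervals took in 1, at 1.04 (0.541 to 2.21) for RT1-DOa and 0.805 (0.344 to 2.18) for RT1-DOb. The dendritic-like level of the classical chains was thus above the B cell-like level, while for DO no difference was detectable with these nuclei. In library 3 free RNA or RNA of other cells could supply up to 84.1% of UMIs in B cell-like nuclei. In dendritic-like nuclei of that library the estimate was up to 51.2%. The part of such RNA in these ratios was not tested.

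Macrophage-like nuclei held a class II sum of 270, 259 and 175 CPM in libraries 1, 3 and 4, against 15.2, 224 and 101 CPM in other named nuclei, ratios of 17.7 (12.9 to 23.9), 1.15 (1.10 to 1.22) and 1.73 (1.45 to 2.04). The library 1 level rests on 54 UMIs in 28 of 210 nuclei. B cell markers were at 175, 45.7 and 72.4 CPM in macrophage-like nuclei of libraries 1, 3 and 4, and dendritic markers at 520, 411 and 450 CPM. Whether B cells or dendritic cells among these nuclei supplied part of the class II level was not tested. The level in the macrophage-like nuclei varied 1.55-fold (1.11 to 2.12) between libraries 1 and 4, whereas that of the nuclei beside them varied far more. These were not the same clusters: 200 of the 210 nuclei of library 1 lay in a cluster led by F13a1, Cd163 and Mrc1 that held 0 nuclei of the other libraries, and those of libraries 3 and 4 in 5 other clusters. RT1-Db1 was at 130, 82.1 and 52.9 CPM, RT1-Da at 45.01, 95.6 and 77.0 CPM and RT1-Ba at 30.01, 49.0 and 23.0 CPM in these nuclei. RT1-Db2, which was not higher in dendritic-like nuclei, was at 5.00, 10.3 and 10.3 CPM, which is 5.93 (0.14 to 39.5), 2.08 (1.55 to 2.77) and 3.24 (1.41 to 6.60) times other named nuclei. Within library 3 the macrophage-like clusters ranged only from 233 to 312 CPM of class II. Dendritic-like over macrophage-like nuclei, the class II sum stood at 7.88 (7.37 to 8.42) in library 3 and 14.1 (11.7 to 17.2) in library 4. For RT1-DOa that ratio was 40.6 and 36.5, and for RT1-Da 6.36 and 11.5.

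In T or NK cell-like nuclei the class II sum was 151, 244 and 102 CPM in libraries 1, 3 and 4, which is 8.58 (4.84 to 14.2), 1.06 and 0.974 times other named nuclei. The library 1 level rests on 16 UMIs in 7 of 89 nuclei, and B cell markers were at 151 CPM in these nuclei, against 87.7 and 67.0 CPM in those of libraries 3 and 4; their part in it was not tested. RT1-DOa there was at 37.7 CPM from 4 UMIs, 20.2 (5.16 to 57.5) times other named nuclei, while no RT1-Da UMI was counted in those 89 nuclei, which allows up to 28.3 CPM. Neutrophil-like nuclei were at 322 and 196 CPM of class II in libraries 3 and 4, 1.41 (1.26 to 1.57) and 1.88 (1.20 to 2.81) times other named nuclei, and RT1-Da was at 128 and 81.6 CPM in them. No RT1 gene was called in macrophage-like nuclei, where 3.22% of genes were, in T or NK cell-like nuclei, where 2.69% were, or in neutrophil-like nuclei, where 5.76% were. The class II genes with 30 UMIs were 5, 3 and 3 in those classes, with median log2 differences of 0.47, 0.01 and 0.37, beside 0.01, 0.08 and −0.06 over all genes measured.

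In the parenchymal and vascular classes the class II level differed widely between libraries, and in libraries 3 and 4 some of these classes reached leukocyte levels. Cardiomyocyte-like nuclei were at 4.68, 45.4, 162 and 79.3 CPM in libraries 1 to 4, a ratio of 34.7 (25.3 to 49.1) between libraries 3 and 1. Endothelial-like nuclei were at 30.6, 90.2, 174 and 68.7 CPM, and fibroblast-like nuclei at 16.1, 79.1, 135 and 80.3 CPM. Pericyte-like nuclei were at 28.7, 68.2, 236 and 123 CPM, near the 244 CPM of T or NK cell-like nuclei in library 3 and at 123 (101 to 148) CPM, with an overlapping interval, beside their 102 (71.0 to 142) CPM in library 4. Myh11, a smooth muscle marker, was among the leading genes of the pericyte-like cluster. At Leiden resolution 2 a separate smooth muscle cluster held 54, 11, 19 and 56 nuclei of libraries 1 to 4. Lymphatic endothelial-like nuclei were at 9.91, 217 and 67.4 CPM and Schwann or neuronal-like nuclei at 14.7, 123 and 135 CPM in libraries 1, 3 and 4. Their library 1 values rest on 2 UMIs each, with intervals of 1.20 to 35.8 and 1.77 to 52.9 CPM. The Schwann or neuronal-like values of libraries 3 and 4 rest on 17 and 23 UMIs. Macrophage markers in cardiomyocyte-like nuclei moved with these levels, at 44.0, 286, 1164 and 552 CPM in libraries 1 to 4. RT1-Da in cardiomyocyte-like nuclei was at 0.959, 14.5, 58.7 and 28.7 CPM and RT1-Db1 at 2.40, 11.8, 54.9 and 26.7 CPM. Within the class the cluster of lowest depth, with a median of 1010.5 UMIs, held 347 and 199 CPM of class II in libraries 3 and 4, against 131 and 57.9 CPM in the cardiomyocyte-like cluster of highest depth, with a median of 4613.5 UMIs. The share of UMIs that free RNA or RNA of other cells could supply was estimated at up to 32.9, 50.4, 72.6 and 65.1% in cardiomyocyte-like nuclei, against up to 51.2 and 46.4% in dendritic-like nuclei of libraries 3 and 4. In libraries 3 and 4 it was up to 76.1 and 69.7% in pericyte-like nuclei and up to 84.8 and 73.1% in T or NK cell-like nuclei. The part of such RNA in the class II levels was not tested beyond the values given here and the subtraction in the closing section.

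Among endothelial-like nuclei, 1 cluster had Gja5, Sox17 and Bmx, genes known from arterial endothelium, among its leading genes. It held 374 CPM (295 to 466) of class II in library 3 and 71.3 CPM (51.2 to 96.7) in library 4. In library 1 only 1 class II UMI was counted in its 53 nuclei, or 11.1 CPM (0.282 to 62.0), too few for a level. Over all endothelial-like nuclei the class II sum was 6.55 (4.46 to 9.79), 1.98 (1.42 to 2.81), 1.07 (0.986 to 1.16) and 0.866 (0.759 to 0.987) times that of cardiomyocyte-like nuclei in libraries 1 to 4. Over all nuclei of both classes, endothelial-like nuclei were thus higher in libraries 1 and 2, not separable in library 3 and lower in library 4. The cardiomyocyte-like cluster of highest depth alone was at 131 (122 to 140) and 57.9 (51.2 to 65.2) CPM in libraries 3 and 4. Endothelial-like nuclei, at 174 (164 to 184) and 68.7 (62.7 to 75.0) CPM, stood above that cluster in library 3. In library 4 the intervals overlapped, so no order in libraries 3 and 4 is read from the pooled ratio.

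Counting nuclei gave the same leading class. In library 3, 89.0% (85.2 to 92.1) of dendritic-like nuclei had at least 1 class II UMI at a median depth of 1931 UMIs, against 38.0% of cardiomyocyte-like nuclei at 2170 UMIs. With every nucleus thinned to 500 UMIs these shares were 56.2% and 10.005%. In library 4 the shares were 82.3% of dendritic-like nuclei (70.5 to 90.8) and 20.4% of cardiomyocyte-like nuclei, and 51.6% and 5.97% after thinning, at median depths of 1935 and 1876 UMIs. At least 3 class II UMIs were seen in 65.2 and 71.0% of dendritic-like nuclei of libraries 3 and 4, against 4.49 and 1.46% of cardiomyocyte-like nuclei.

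For B cell-like nuclei of library 3, at a median of 1406.5 UMIs, the share with a class II UMI was 72.0%, or 39.0% after thinning. Macrophage-like nuclei of library 3 were at 34.6% with a median of 1566 UMIs, below the 38.0% of cardiomyocyte-like nuclei, and at 12.6% after thinning, against 10.005%. In library 1, by contrast, 13.3% of macrophage-like nuclei at 810.5 UMIs and 1.19% of cardiomyocyte-like nuclei at 2596 UMIs had a class II UMI, or 10.5% and 0.372% after thinning. Cardiomyocyte-like shares are given because cardiomyocytes are not known to carry class II, and the part of free RNA in each share was not tested. The macrophage-like share stood well above the cardiomyocyte-like one in library 1. In library 3 the share with all UMIs ran against the CPM, so no order is read from it.

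**Figure D3:**
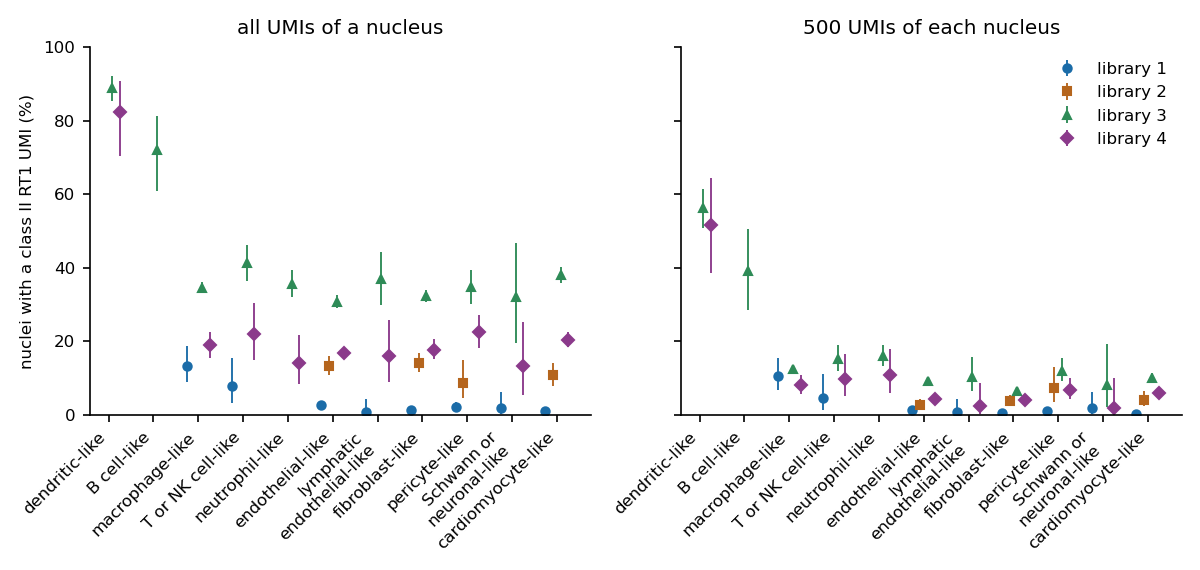
Share of nuclei with at least 1 class II UMI (%) by class and library, with all UMIs in the left panel and 500 UMIs drawn per nucleus in the right panel; bars are 95% Clopper-Pearson intervals. In library 3 the dendritic-like share is 89.0% against 38.0% in cardiomyocyte-like nuclei with all UMIs, and 56.2% against 10.005% at 500 UMIs.

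The partners of class II were followed through a list of genes of its assembly, which was put together with earlier results of these data known. Of the 9 measured in dendritic-like nuclei, 5 were called higher, beside 5.67% of all genes, with a median log2 difference of 1.69: Cd74, the invariant chain that fills the class II groove, by 3.57, Marchf1, a ubiquitin ligase that removes class II from the surface, by 2.73, Ifi30, a lysosomal thiol reductase, by 1.88, the tetraspanin Cd37 by 1.73 and Ctss, the cathepsin that trims the invariant chain, by 1.69. The tetraspanin Cd9 was at −1.78 and the cathepsin Ctsl at −0.29. Cd74 stood at 1700 and 1945 CPM in dendritic-like nuclei of libraries 3 and 4, 698 CPM in B cell-like nuclei of library 3, and 179 and 92.5 CPM in cardiomyocyte-like nuclei. In macrophage-like nuclei Cd74 was at 290, 308 and 231 CPM in libraries 1, 3 and 4, against 31.1, 179 and 92.5 CPM in cardiomyocyte-like nuclei of those libraries, so it stood farther above them in library 1 than in libraries 3 and 4, as the class II sum did. The same list had 5 of 9 called in macrophage-like nuclei, beside 3.22% of all genes, namely Ctss, Ctsb, Lgmn, Marchf1 and Cd37. In B cell-like nuclei 3 of 8 were called, beside 7.71% of all genes, namely Cd74, Marchf1 and Cd37. As for the RT1 genes, a gene reaches the UMI minimum in so small a class only through a high level there. Nothing is therefore read from the 3 of 8.

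Of the genes that control MHC transcription, without the marker Irf8, 2 of 9 measured were called higher in dendritic-like nuclei, where 5.67% of all genes were. Ciita, the class II transactivator, was higher by 4.75 on the log2 scale, and Spi1, a myeloid transcription factor, by 1.68, whereas Nlrc5, the class I transactivator, was at 0.97, Nfya at 0.02 and Nfyc at −0.33. Ciita was at 465 and 441 CPM in dendritic-like nuclei of libraries 3 and 4, 132 CPM in B cell-like nuclei of library 3, and 85.0, 8.07 and 9.19 CPM in macrophage-like nuclei of libraries 1, 3 and 4. In cardiomyocyte-like nuclei Ciita was at 1.44, 1.82, 11.7 and 6.32 CPM in libraries 1 to 4. The macrophage-like Ciita level was thus above the cardiomyocyte-like one in library 1 and not in library 3. Whether B cells or dendritic cells among the macrophage-like nuclei of library 1 supplied part of it was not tested. Of the costimulatory genes Cd80, higher by 1.70, and Cd86, higher by 1.98, were called, 2 of 4 measured, against the same 5.67% of all genes. Of interferon gamma signalling genes 2 of 6 measured were called, the receptor chain Ifngr2 at 1.64 and the phosphatase Ptpn6 at 1.83. Of receptors for MHC molecules 1 of 3 measured was called, Klrk1 at 2.42, and these shares too stand beside 5.67%. Genes of these lists were measured only if they reached the UMI minimum in this small class, which a high level there alone can bring about. The shares called in this paragraph are therefore no support in themselves.

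Class I RNA was spread over all classes, with endothelial-like nuclei above cardiomyocyte-like nuclei in every library. The class I sum was 1100, 1288, 763 and 883 CPM in endothelial-like nuclei of libraries 1 to 4, against 69.7, 611, 413 and 503 CPM in cardiomyocyte-like nuclei. The ratio was 15.8 (14.4 to 17.3) in library 1 and 2.11 (1.93 to 2.31), 1.84 (1.76 to 1.93) and 1.76 (1.68 to 1.84) in libraries 2 to 4. The library 2 ratio rests on 717 endothelial-like and 418 cardiomyocyte-like nuclei, with 83.2% of that library's nuclei unnamed. With no doublet removal it turned to 0.924. Against all other named nuclei the endothelial-like ratio was 5.63 (5.34 to 5.94), 1.504 (1.41 to 1.60), 1.54 (1.49 to 1.59) and 1.48 (1.43 to 1.54). All 15 class I genes with at least 100 UMIs were higher in endothelial-like than in cardiomyocyte-like nuclei in all 4 libraries, 12 of them with every interval above 1. Against all other named nuclei this held for 13 and 10 of the 15, and against fibroblast-like nuclei for 12 and 8.

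At least 2-fold in all 4 libraries was reached by none of the 15 class I and none of the 6 class II genes measured in endothelial-like nuclei, where 2.43% of 13060 genes reached it, or 1.55% with no filter; their medians were 0.52 and −0.07 on the log2 scale, beside 0.00 over all genes. In cardiomyocyte-like nuclei 0.28% of 13560 genes were at least 2-fold lower in all 4 libraries and no RT1 gene was, with medians of −0.62 for 14 class I and −0.41 for 6 class II genes, beside −0.23 over all genes. The class I sum of cardiomyocyte-like nuclei was 0.0978 (0.0896 to 0.107) of that of other named nuclei in library 1, and 0.542, 0.717 and 0.630 of it in libraries 2 to 4. Of the 15 class I genes, 14 were lower there in all 4 libraries, 10 of them with every interval below 1.

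**Figure D4:**
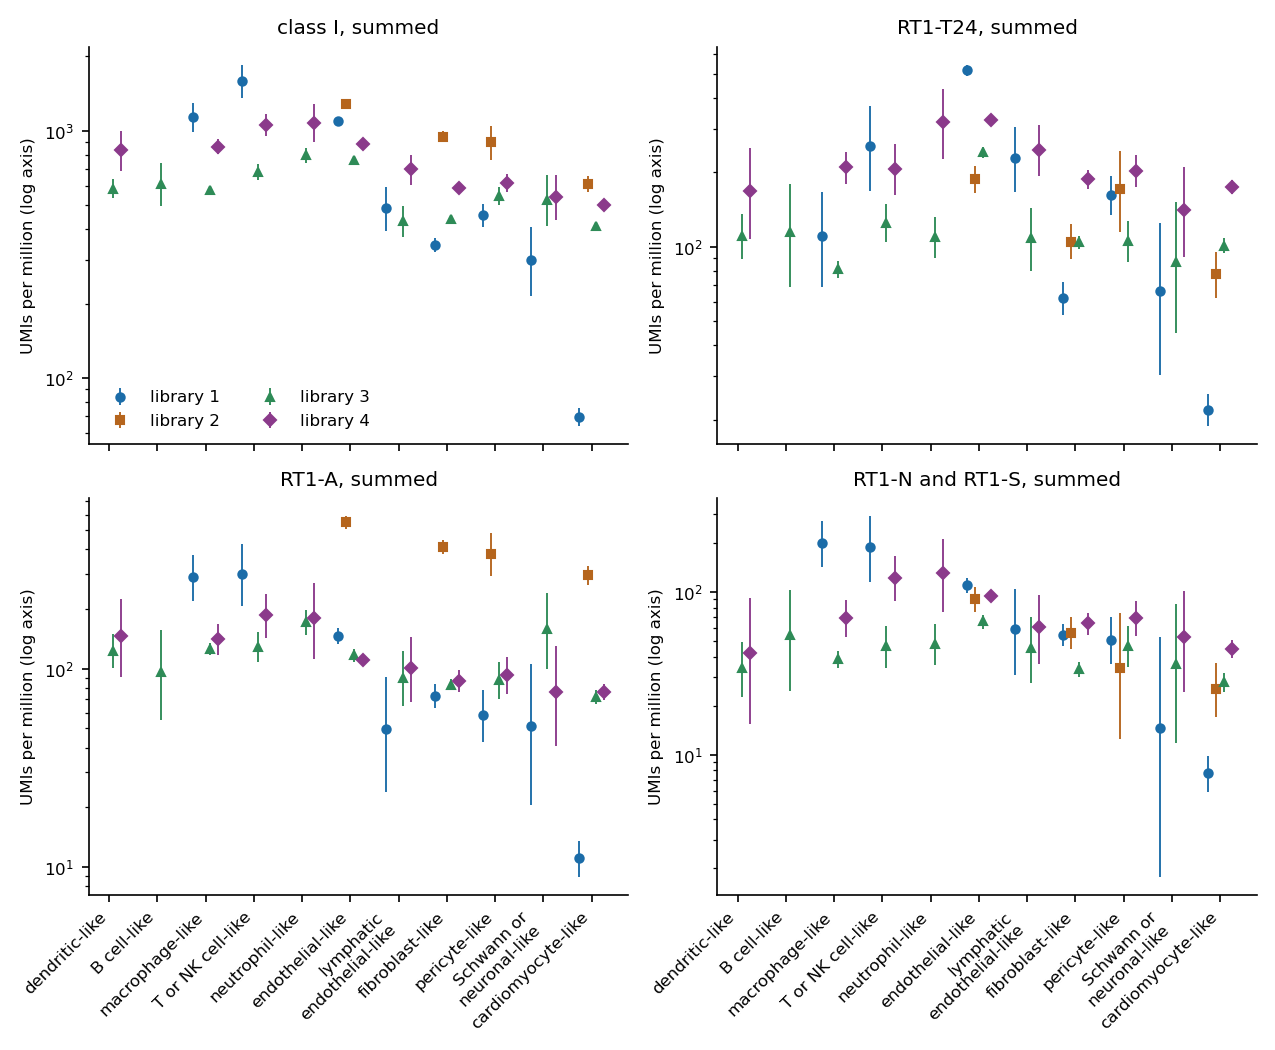
Levels (CPM, log axes) of the class I sum, the RT1-T24 genes, the RT1-A genes and the RT1-N and RT1-S genes by class and library, with 95% exact Poisson intervals. Cardiomyocyte-like nuclei of library 1 are lowest for the class I sum, at 69.7 CPM, and endothelial-like nuclei of library 1 reach 516 CPM for RT1-T24, against 61.9 CPM in fibroblast-like nuclei.

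Among leukocytes, T or NK cell-like nuclei held 1585, 683 and 1054 CPM of class I in libraries 1, 3 and 4, which is 4.40 (3.75 to 5.13), 1.27 and 1.504 times other named nuclei. Macrophage-like nuclei were at 1135, 576 and 863 CPM, 3.16, 1.08 and 1.23 times the rest, and neutrophil-like nuclei at 796 and 1078 CPM in libraries 3 and 4, 1.49 and 1.53 times the rest. Dendritic-like nuclei, highest for class II, were near the rest for class I, at 584 and 833 CPM, ratios of 1.08 (0.986 to 1.18) and 1.18 (0.975 to 1.41). B cell-like nuclei of library 3 were at 608 CPM. Thinned to 500 UMIs, 42.2, 44.8, 31.0 and 36.5% of endothelial-like nuclei had a class I UMI in libraries 1 to 4, against 4.21, 30.6, 22.4 and 27.4% of cardiomyocyte-like nuclei.

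The 3 RT1-T24 genes, of class I, were together higher in endothelial-like than in fibroblast-like nuclei of all 4 libraries. Their sum was 516, 188, 241 and 324 CPM in endothelial-like nuclei of libraries 1 to 4, against 61.9, 105, 104 and 187 CPM in fibroblast-like nuclei, ratios of 8.34 (7.13 to 9.79), 1.79, 2.31 and 1.73. Lymphatic endothelial-like nuclei were at 228, 108 and 246 CPM in libraries 1, 3 and 4, below the blood endothelial-like level by ratios of 2.26, 2.22 and 1.32. Against pericyte-like nuclei the endothelial-like ratio was 3.19, 1.10 (0.752 to 1.66), 2.28 and 1.60, so no difference was detectable in library 2. The clusters behind the endothelial-like level differed: the cluster with 1831 of the 2055 nuclei of library 1 held 556 CPM of RT1-T24 there and 609 CPM (484 to 756) in its 59 nuclei of library 4, whereas a cluster led by Nrg1, Zmat4 and Pgm5, the only one with 50 nuclei in all 4 libraries, held 246, 169, 224 and 276 CPM. Macrophage-like nuclei did not share the difference, at 110, 80.9 and 209 CPM, or 0.803, 0.605 (0.553 to 0.660) and 0.865 of other named nuclei.

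RT1-T24-3 was at 193, 68.3, 42.0 and 123 CPM in endothelial-like nuclei, 13.7, 1.89, 2.63 and 2.53 times other named nuclei. RT1-T24-4 was at 175, 68.3, 122 and 85.5 CPM there, 12.4, 1.90, 3.11 and 1.44 times the rest. RT1-T24-1 was at 148, 50.9, 76.7 and 115 CPM, 8.03, 1.62, 1.75 and 1.46 times the rest. All 3 were higher in all 4 libraries, and by most in library 1. Neutrophil-like nuclei were high for RT1-T24-3 too, at 45.1 and 212 CPM in libraries 3 and 4, 2.29 (1.67 to 3.08) and 2.76 (1.80 to 4.06) times the rest.

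RT1-A1 and RT1-A2 carry the name of the classical class I locus of the rat. Their sum was 147, 549, 117 and 111 CPM in endothelial-like nuclei, against 11.0, 297, 72.0 and 76.4 CPM in cardiomyocyte-like nuclei of libraries 1 to 4. Library 2 was the highest in every class measured there, with 411 CPM in fibroblast-like nuclei, against 73.0, 83.2 and 86.9 CPM in libraries 1, 3 and 4. RT1-A1 alone was at 106, 332, 75.6 and 75.6 CPM in endothelial-like nuclei and at 7.79, 181, 45.1 and 52.9 CPM in cardiomyocyte-like nuclei. RT1-A2 was at 40.6, 217, 41.3 and 35.7 CPM in endothelial-like nuclei. Between libraries 2 and 4 the endothelial-like RT1-A sum differed 4.93-fold, while the class I sum differed at most 1.69-fold, between libraries 2 and 3.

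The RT1-CE genes, class I genes that are mostly non-classical, summed to 298, 438, 316 and 328 CPM in endothelial-like nuclei, against 25.5, 199, 200 and 196 CPM in cardiomyocyte-like nuclei. They were higher still in T or NK cell-like nuclei, at 821, 361 and 498 CPM in libraries 1, 3 and 4. RT1-CE4 was at 141, 299, 122 and 130 CPM in endothelial-like nuclei, and RT1-CE10 at 86.6, 77.1, 99.0 and 92.6 CPM, so RT1-CE4 had the library 2 peak of RT1-A and RT1-CE10 did not. RT1-CE1 was at 42.3, 22.5, 61.0 and 76.0 CPM in the same nuclei, and in dendritic-like nuclei at 60.6 and 182 CPM in libraries 3 and 4, 1.19 and 3.17 (2.06 to 4.67) times other named nuclei. RT1-CE5 was at 20.7, 38.5, 31.8 and 24.5 CPM and RT1-CE7 at 7.66, 1.45, 2.75 and 4.67 CPM in endothelial-like nuclei.

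RT1-S3, a relative of mouse Qa-1 (a ligand of NK cell receptors), was at 53.0, 42.9, 37.5 and 47.7 CPM in endothelial-like nuclei, 4.08, 2.41, 1.90 and 1.60 times other named nuclei. RT1-N2 was at 104, 11.1 and 55.3 CPM in T or NK cell-like nuclei of libraries 1, 3 and 4, 7.13, 2.27 and 4.38 times other named nuclei. RT1-N2 in macrophage-like nuclei was at 125 CPM in library 1 but at 3.68 and 10.3 CPM in libraries 3 and 4, against 9.37 (7.11 to 12.1) and 17.1 (14.2 to 20.5) CPM in endothelial-like nuclei there. The intervals of T or NK cell-like and endothelial-like nuclei in library 3, and of macrophage-like and endothelial-like nuclei in library 4, overlapped. RT1-N3 was at 21.0, 23.3, 18.4 and 29.6 CPM in endothelial-like nuclei. RT1-M3-1, whose product presents N-formylated peptides, was at 26.3, 21.1, 19.4 and 22.5 CPM there, 4.00, 1.81, 1.71 and 1.97 times the rest, and at 42.1 CPM in B cell-like nuclei of library 3, 3.35 (1.34 to 6.97) times the rest. RT1-M6-1 stayed low, at 3.33, 2.18, 3.39 and 2.83 CPM in endothelial-like nuclei.

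Of the 12 measured genes of class I assembly none was called in endothelial-like nuclei, with a median of 0.27 on the log2 scale; B2m, beta-2 microglobulin, was at 0.74, Tap1, a TAP subunit, at 0.36, and the chaperones Canx and Pdia3 at −0.07 and −0.10. B2m was at 420, 673, 1109 and 1075 CPM in endothelial-like nuclei of libraries 1 to 4, against 30.3, 300, 609 and 521 CPM in cardiomyocyte-like nuclei. Tap1 was at 83.3, 44.4, 47.1 and 53.5 CPM, against 4.92, 18.2, 26.3 and 25.5 CPM. Both partners were thus higher in endothelial-like nuclei of every library, by most in library 1, as the class I sum was. Nlrc5 was at 120, 24.0, 23.6 and 25.3 CPM, against 21.3, 18.2, 14.5 and 18.8 CPM. In dendritic-like nuclei none of 11 measured class I assembly genes was called, with a median of 0.06, from 0.98 for the immunoproteasome subunit Psmb9 and 0.78 for Tap1 to −0.07 for Pdia3 and −0.51 for the proteasome activator Psme2.

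RT1 levels also differed between libraries inside a class, which cannot be told apart from differences between animals, tissue pieces and conditions, since suffixes are not tied to samples. In cardiomyocyte-like nuclei 11 of 14 class I and 5 of 6 class II genes spanned at least 2-fold between libraries, against 37.0% of 13560 genes. In endothelial-like nuclei it was 8 of 15 and 5 of 6, against 28.4%, in fibroblast-like nuclei 9 of 15 and 4 of 5, against 28.7%, and in pericyte-like nuclei 9 of 13 and 3 of 3, against 43.1%. Genes entered with at least 30 UMIs in the class summed over the 4 libraries, which a high level in 1 library can bring about. These counts are therefore no support in themselves, and the part of free RNA in them was not tested. The nuclei of 1 class lay in different clusters here: cardiomyocyte-like nuclei of library 1 were in 1 cluster (2648 of 2687), those of library 2 in another (383 of 418), and those of libraries 3 and 4 in 2 others (1121 and 901 of 2029, and 716 and 783 of 1507). The class I sum of cardiomyocyte-like nuclei was lowest in library 1, and library 2 stood 8.77-fold (7.84 to 9.82) above it. The class I sum of macrophage-like and T or NK cell-like nuclei, in contrast, was highest in library 1, 1.97-fold and 2.32-fold above library 3, with 200 of the 210 macrophage-like nuclei of library 1 in a cluster of that library alone, and the T or NK cell-like nuclei of all libraries in the same 2 clusters. For class II the dendritic-like level differed by only 1.21-fold (1.08 to 1.36) between libraries 4 and 3.

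Near-identical copies are common in the MHC and rats of an outbred strain can carry different alleles, so reads of one RT1 gene can be counted under another, and the balance within gene pairs was followed for 13 pairs. RT1-A1 took 55.1, 80.5, 44.7 and 47.1% of the UMIs of RT1-A1 and RT1-CE10 together in libraries 1 to 4. In library 2 that share was 81.2% in endothelial-like, 79.6% in fibroblast-like and 81.2% in cardiomyocyte-like nuclei, and in library 3 it was 43.3, 46.5 and 41.7% in the same classes. The balance thus moved more with the library than with the class. Likewise RT1-Da took 21.6% (15.8 to 28.4) of the pair RT1-Da and RT1-Db1 in library 1, against 55.8, 51.1 and 53.4% in libraries 2 to 4. In library 1 that share was 25.7% in macrophage-like, 19.6% in endothelial-like and 28.6% in cardiomyocyte-like nuclei, from 28 to 56 UMIs each. Alleles, animals and libraries cannot be told apart in such library-wide balances.

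Other pairs moved with the class. RT1-T24-3 took 35.4% (31.9 to 39.0) of the pair RT1-T24-3 and RT1-T24-1 in endothelial-like nuclei of library 3, against 15.4% (12.7 to 18.3) in fibroblast-like nuclei, and 60.3% (48.5 to 71.2) in neutrophil-like nuclei of that library. In library 4 the same shares were 51.7% (49.3 to 54.1), 25.3% (20.5 to 30.6) and 81.2% (63.6 to 92.8). RT1-Db2 took 1.35% (0.585 to 2.65) of the pair RT1-Db2 and RT1-Db1 in dendritic-like nuclei of library 3, against 11.2% (8.87 to 13.8) in macrophage-like nuclei and 7.43% (5.23 to 10.2) in cardiomyocyte-like nuclei. In library 2 RT1-Db2 held 33.0% (29.4 to 36.8) of that pair over all nuclei, against 9.21, 7.49 and 10.1% in libraries 1, 3 and 4. These pairs were picked for this pattern after their values were seen, and the part of free RNA in it was not tested.

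**Figure D5:**
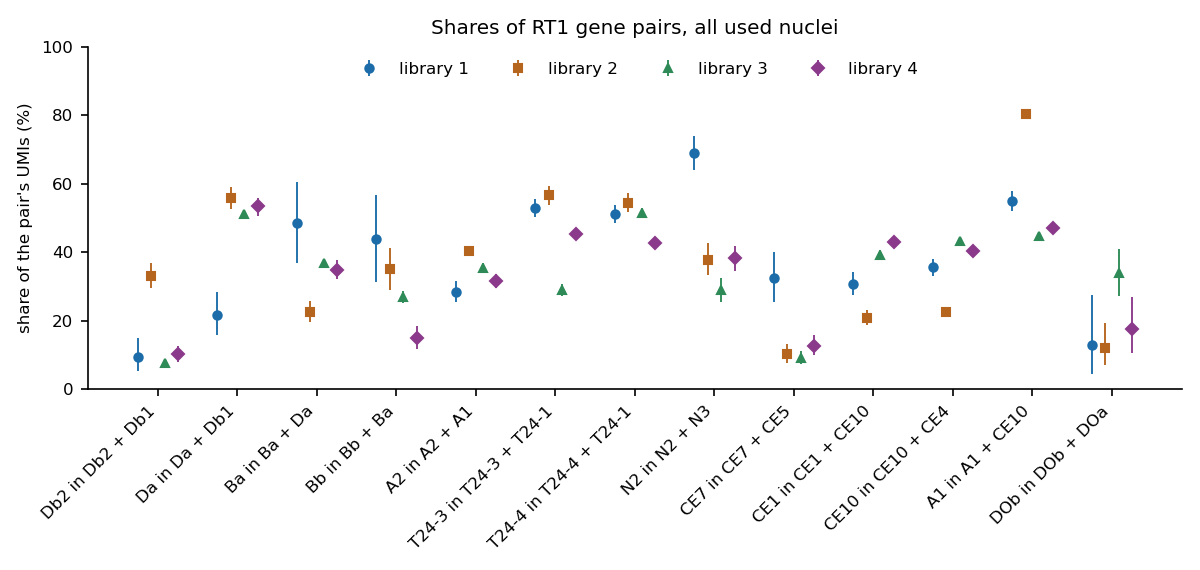
Share of UMIs (%) that the first gene of each of 13 RT1 pairs took of the pair, over all nuclei used, in libraries 1 to 4, with 95% Clopper-Pearson intervals. RT1-A1 against RT1-CE10 is highest in library 2, at 80.5%, and RT1-Da against RT1-Db1 is lowest in library 1, at 21.6%.

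Genes whose level over the 33 class and library points was most like the class II sum were named by the Pearson correlation of log2(CPM + 10), given as a description because the points share libraries, depth and free RNA. They were Wdfy4 with r of 0.914, which was also one of the dendritic markers, Pycard with 0.913, Pou2f2 with 0.904, Itgb2 with 0.8999, Irf5 with 0.898, and AABR07035470.1 and Cnpy3 with 0.897 each. Of the partners named above, Cd74 had 0.958 and Ciita 0.804. The class I sum was followed most closely by Lap3 with 0.867, Clec2g with 0.846, Cmip with 0.833, Parp14 with 0.829, Dgkh with 0.828, Hpcal1 with 0.826, Cflar with 0.825 and Zc3hav1 with 0.824, and less by Tap1 with 0.717, B2m with 0.600 and Nlrc5 with 0.506.

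Of the 31 members, 22 had from 102 UMIs, in RT1-DOb, to 11117 UMIs, in RT1-CE4, over all used nuclei, and the other 9 had fewer than 100. RT1-M5 and RT1-DMa were at 0 UMIs, and RT1-M2, RT1-M4, RT1-M6-2, RT1-S2, RT1-Ha, RT1-CE3 and RT1-DMb had between 2 and 34. RT1-DMb, the beta chain of the DM peptide exchanger, had 30 UMIs, so the DM pair that DO acts on could not be followed in these counts. Why the counts of the pair were so low was not tested. The class II sum outside named classes was 159 CPM (149 to 169) in the largest unnamed cluster, which held 10110 nuclei of library 2 at a median of 573 UMIs, and its class I sum was 1491 CPM.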

How the data were processed

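The authors deposited unnormalized UMI counts in 1 matrix of 32623 genes and 48637 barcodes, made from 10x 3′ v3 libraries of nuclei isolated with a Dounce homogeniser, per the labels' protocols. Per the file headers the program was cellranger 5.0.1; per the submitters' processing notes it was Cell Ranger 6.1.1, with Seurat and the build rn7. Some gene symbols are contig names of Rnor_6.0, so the build is not settled and no coordinate was taken from the counts. Whether near-identical RT1 copies were counted apart, and whether reads were counted by strand, is not given in the sources used here. No column of per-sample values was left unused (0).

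The filters were a minimum of 500 UMIs and 300 genes per nucleus and a mitochondrially encoded share of 10% or less. The highest doublet scores of the scrublet step of scanpy 1.11.5 were removed at 0.8% per 1000 nuclei, 650, 1706, 2166 and 340 nuclei in libraries 1 to 4. Counts were scaled to 10000, log-transformed and clustered from 2000 variable genes, without the RT1 genes and the fixed antigen presentation lists, with 30 principal components, 15 neighbours and Leiden clustering (leidenalg 0.10.2) at resolution 1. The 9106 nuclei of the first clusters whose markers scored highest for a leukocyte class were clustered again. This step was added after the clusters were seen and before RT1 values were computed. Some of these nuclei then fell in clusters of other names, with 676 nuclei of library 2 fibroblast-like and 592 endothelial-like. Of 33 clusters, 26 were named, and 7 stayed unnamed. A name needed 3 markers that were 2-fold higher and present in 5% of the nuclei or more. The mean log2 fold of the markers had to be 0.5 above that of the next unrelated class. Macrophage, neutrophil and dendritic counted as related, so no margin between them was needed. Other related pairs, such as endothelial and lymphatic endothelial, were treated alike. Among a cluster's leading genes, no unrelated class could have more markers than its own. A cluster of low depth with no own marker among those genes was not named. Markers that were not found in the gene table, such as Ttn and Pecam1, are not analysed here.

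Levels, ratios and shares have exact Poisson, conditional binomial and Clopper-Pearson 95% intervals (scipy 1.17.1). A class enters in a library with at least 50 nuclei, so the planned 2-fold rule over all 4 libraries was applied over those libraries. A count of 0 allows up to 3 counts. Free RNA was estimated from above: the summed profile of a library was scaled and subtracted until the markers of other classes reached 0, and the UMIs removed are the estimate. RT1 genes with at least 100 UMIs were named, and of each list the 2 highest and 2 lowest members, called members beside them, B2m, Tap1, Nlrc5, Cd74 and Ciita; the 8 genes most like each sum were taken among those with at least 200 UMIs, and 1 gene so chosen is not reported here. Class II comprised the symbols beginning RT1-B, RT1-D or RT1-H. Members, lists and markers were chosen with earlier results of these data known. The steps were tested on simulated data. Alternatives were another depth minimum, no doublet removal, another resolution, all genes in clustering, other scalings, free RNA subtracted, another pseudocount, no filter and thinning.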

Additional observations from a re-analysis of the deposited data

Results flagged for a closer look

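RT1-T24-4 drew attention because its order between macrophage-like and cardiomyocyte-like nuclei turned between libraries. It was at 55.0, 31.2 and 34.5 CPM in macrophage-like nuclei of libraries 1, 3 and 4, against 3.72, 45.1 and 58.7 CPM in cardiomyocyte-like nuclei. The ratio was 14.8 (6.71 to 30.3) in library 1, 0.691 (0.582 to 0.820) in library 3 and 0.587 (0.390 to 0.855) in library 4. The difference between libraries was not tested, since each library is 1 sample.

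Class II UMIs were also present in barcodes outside the nuclei described, those left out by the filters on depth, genes, mitochondrial share and doublets. They held 21.3 CPM (16.3 to 27.5) of class II in library 1, 148 CPM (129 to 169) in library 2, 186 CPM (179 to 194) in library 3 and 119 CPM (108 to 131) in library 4. The class II sums of the nuclei used were 18.8, 123, 227 and 101 CPM in the same libraries, so both kinds of barcode had the lowest level in library 1 and the highest in library 3. Whether free RNA or doublets supplied these counts was not tested.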

How the results depend on the processing

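All 14 ratios kept their side of 1 in every alternative that gave a value, except class I in endothelial-like over cardiomyocyte-like nuclei of library 2, which was 2.11 and turned to 0.924 with no doublet removal, where 11687 nuclei of library 2 with a median of 580 UMIs entered a cardiomyocyte-like cluster. The dendritic-like class itself changed in 2 settings. Against 345 nuclei in library 3, the named cluster held 97 with at least 1000 UMIs and 93 with no doublet removal. A cluster led by Ciita, with 262 and 229 nuclei of library 3, went unnamed. Its markers scored highest for the macrophage class with at least 1000 UMIs and for the dendritic class with no doublet removal. The dendritic-like ratios of those settings therefore describe a smaller class. With at least 1000 UMIs per nucleus, class II was 14.2 in dendritic-like over other named nuclei of library 3, 5.29 in B cell-like over other named nuclei, and 1.99 and 3.13 in macrophage-like over cardiomyocyte-like nuclei of libraries 3 and 4, class I in endothelial-like over cardiomyocyte-like nuclei was 12.8, 1.60, 1.98 and 1.89 in libraries 1 to 4, and RT1-T24 in endothelial-like over fibroblast-like nuclei 6.85 and 2.54 in libraries 1 and 2. With no doublet removal the dendritic-like ratio of library 3 was 13.7, the B cell-like ratio 5.30, the macrophage-like ratio of library 3 1.88, and the class I ratio 9.75, 1.74 and 1.64 in libraries 1, 3 and 4. At Leiden resolution 2 the B cell-like ratio was 4.196, the macrophage-like ratio 2.12 and 3.66 in libraries 3 and 4, and the class I ratio 1.45, 2.06 and 2.03 in libraries 2 to 4. With the antigen presentation genes kept in clustering the B cell-like ratio was 4.52, the class I ratio 1.92 and 1.85 in libraries 2 and 4, and the RT1-T24 ratio 1.41 in library 2. With free RNA subtracted the dendritic-like ratio was 28.7 and 68.2 in libraries 3 and 4, the B cell-like ratio 15.9, the macrophage-like ratio 1434.5, 36.9 and 5.99 in libraries 1, 3 and 4, the class I ratio 705, 73.0, 10.8 and 5.72, and the RT1-T24 ratio 13.8, 3.27, 4.51 and 2.51; ratios this high follow from a level near 0 left after subtraction in the lower class. With median-of-ratios scaling the macrophage-like ratio of library 1 was 30.01 and the class I ratio 9.76, 1.60, 1.74 and 1.55. Without the cardiomyocyte-like cluster of lowest UMI count, an alternative chosen after seeing the data, the macrophage-like ratio was 1.99 and 3.03 in libraries 3 and 4 and the class I ratio 2.07 and 2.06 there. With nuclei thinned to 500 UMIs the shares with a class II UMI in library 3 were 56.2% of dendritic-like, 12.6% of macrophage-like and 10.005% of cardiomyocyte-like nuclei, by construction lower than with all UMIs. Scaling without mitochondrial, ribosomal and haemoglobin genes left all 14 ratios within their intervals, and with a pseudocount of 1 CPM or no filter 6 RT1 genes were called in dendritic-like and 0 in endothelial-like nuclei. Apart from the settings whose construction is named, the cause of these changes was not tested. The dendritic-like ratio of library 4 had no value with at least 1000 UMIs or with no doublet removal, where fewer than 50 such nuclei were left or named. No paired analysis was possible because each group has 1 library and no suffix is tied to a sample. Depth limits the classes with few nuclei most: 62 dendritic-like nuclei of library 4 and 82 B cell-like nuclei of library 3 carry their results, and in libraries 1 and 2 the dendritic-like and B cell-like levels were not measurable.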
